A study of Canis lupus familiaris with 36 samples.

Results

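MYC, identifier ENSCAFG00000001086, is 1 of the 30424 genes in the count table of CLBL-1, a cell line established from a canine diffuse large B-cell lymphoma. It was found in the table by this identifier. CLBL-1 cells were incubated with DMSO, with 1 µM Ibrutinib (Ibr), with 5 µM AS-605240 (AS) or with both inhibitors at these concentrations (Ibr + AS), for 24, 48 or 72 h, and poly-A RNA was sequenced. The inhibitors were dissolved in DMSO, so all groups received this solvent, and the DMSO cells received as much of it as the Ibr + AS cells. Whether the Ibr and AS cells received the same amount is not stated, and its part in their differences from DMSO was not tested. Cells of 3 passage numbers served as replicates 1, 2 and 3 of each of the 12 groups, which gave 36 libraries. The replicates are passages of a single line and not separate dogs or tumours. The p-values below rest on the variation between libraries that remains after group and passage are fitted, and do not cover other lines.

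MYC encodes a basic helix-loop-helix leucine zipper transcription factor that binds E-box DNA together with its partner MAX. It is known for raising the transcription of genes for ribosome biogenesis, translation, protein folding and cell-cycle entry, and its RNA and protein are both short-lived. In B cells the gene is induced when the B-cell receptor (BCR) is engaged, in part through PI3K-AKT signalling, and it is often deregulated in aggressive B-cell lymphomas. Ibr binds covalently to BTK, a kinase directly downstream of the BCR, and AS inhibits PI3K, mainly its gamma isoform.

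Levels below are read counts scaled to library size after TMM normalization (CPM), so they are shares of the RNA of a library. Between 9941919 and 14703839 reads per library were assigned to genes (median 11888025), and between 1645 and 4499 of them to MYC. Counting error of MYC was therefore small, with a coefficient of variation of 1.49 to 2.47% per library, against 1.33 to 17.3% (median 8.27%) between the passages of a group. Of 6 B-cell markers, TNFRSF13C, DLA-DRA, DLA-DQA1, DLA-DMA and TCF4 had reads in all libraries, whereas NFAM1 had none in 32 of the 36 libraries. Markers of T or NK cells were nearly absent (IFNG and IL2RB at most 1 read, CD226 at most 7 and TCF7 at most 4). Of the epithelial markers, GRHL2 and SPDEF had at most 4 and 2 reads, while ESRP1 lay between 13.7 and 24.3 CPM. Ibr 72 h replicate 3 was left out of the tests, as the study did, and its level is shown. In bulk RNA, fewer cells with a high MYC level and less MYC RNA per cell cannot be told apart.

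MYC was detected in every library, from 122 to 423 CPM. It was lowest in cells incubated with DMSO for 24 h and highest in cells incubated with Ibr + AS for 24 or 48 h. With DMSO the level climbed over the incubation time, with AS or Ibr alone it remained between 136 and 240 CPM at all times, and with Ibr + AS it was high from the first time point and lower at 72 h.

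**Figure D1:**
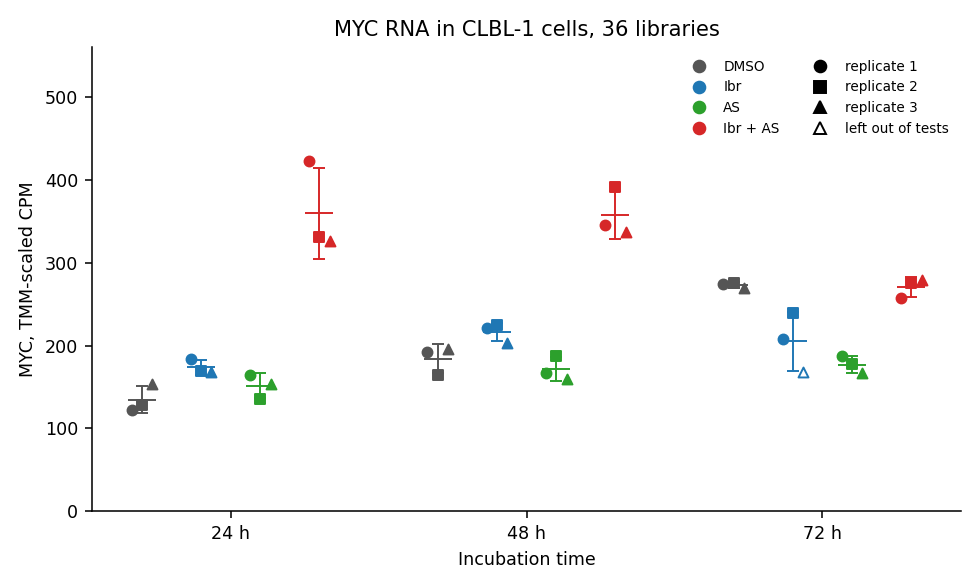
MYC level in each of the 36 libraries (TMM-scaled CPM, vertical axis) by incubation time (horizontal axis) and treatment (colour), with the mean and SD of 3 passages as bar and whisker and the left-out Ibr 72 h library as an open symbol. Ibr + AS libraries at 24 and 48 h lie between 326 and 423 CPM, above all other libraries, while at 72 h the DMSO and Ibr + AS libraries share the range from 257 to 280 CPM.

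The first comparison asks whether the incubation itself, without inhibitor, went along with a change of MYC. The DMSO libraries of replicates 1, 2 and 3 had MYC levels of 122, 128.5 and 154 CPM at 24 h, of 193, 164 and 196 CPM at 48 h and of 274, 276 and 269 CPM at 72 h. The 3 times did not overlap, and the 72 h libraries differed from each other by only a few CPM. The mean level was 135 ± 16.7 CPM (SD, n = 3) at 24 h, 184 ± 17.6 at 48 h and 273 ± 3.64 at 72 h. In the fit of the 9 DMSO libraries MYC rose from 24 to 48 h with a log2 fold change (FC) of 0.45 (SE 0.0751, adjusted p = 2.43e-07 by the quasi-likelihood test of edgeR), and 9.92% of 16468 genes passed an adjusted p of 0.05 in this comparison. From 48 to 72 h it rose by 0.54 (SE 0.0741, adjusted p = 7.48e-12, 29.4% of genes passed), and from 24 to 72 h by 0.99 (SE 0.075, adjusted p = 8.22e-38, 38% of genes passed). MYC was thus called at 72 h against 24 h, though it stayed just under the limit for a differentially expressed gene (DEG), which also requires an absolute log2 FC above 1 and which 6.36% of genes met. The rise from 24 to 72 h was seen in each passage, with log2 differences of 1.16, 1.10 and 0.81. Sample-sheet numbers part the libraries into 2 apparent sequencing runs, and replicates 1 and 3 each fell wholly within 1 run, so their values are within-run differences.

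At 24 h the combination gave the largest of the 9 differences of MYC between a treatment and DMSO. Ibr + AS libraries of replicates 1, 2 and 3 stood at 423, 331 and 326 CPM (360 ± 54.7, SD, n = 3), against 122, 128.5 and 154 CPM with DMSO. The lowest Ibr + AS library lay above the highest of the other 9 libraries of this time, which was at 184 CPM. The log2 FC was 1.39 (SE 0.0972, 95% interval 1.20 to 1.59), a 2.63-fold level, with an adjusted p of 7.55e-23 in edgeR's quasi-likelihood test, and MYC was a DEG. Of 18670 genes tested, 34% passed the adjusted p and 8.26% were DEGs in this comparison, and MYC had rank 61 of all genes by p. Within the passages the log2 differences were 1.79, 1.36 and 1.08.

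The single inhibitors left MYC closer to DMSO at 24 h. Ibr libraries stood at 184, 169 and 168 CPM (174 ± 8.74), all above the 3 DMSO libraries. MYC rose by a log2 FC of 0.35 with Ibr (SE 0.0965, adjusted p = 0.0094, 9.13% of genes passed), and this call was lost without replicate 1 (log2 FC 0.25, adjusted p = 0.162). AS libraries stood at 165, 136 and 154 CPM (152 ± 14.9) and overlapped the DMSO libraries. The log2 FC with AS was 0.16 (95% interval -0.04 to 0.35) and was not called (adjusted p = 0.552, 2.52% of genes passed). Both single treatments were set against the same DMSO libraries as the combination.

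The summed level of 3 monocyte or macrophage markers also differed at this time, with 85.0 to 102 CPM in DMSO and 228 to 325 CPM in Ibr + AS libraries. Most of it was LYZ, which encodes lysozyme, since CSF2RB lay between 8.63 and 18.2 CPM in the 36 libraries and TREM2 never had more than 1 read. At 48 h the same sum was 76.3 to 93.2 CPM in DMSO and 181 to 210.3 CPM in Ibr + AS libraries. At 72 h, when MYC was level, it was 97.9 to 124 CPM in DMSO and 147 to 191 CPM in Ibr + AS libraries, and Ibr libraries at 24 h had 146 to 171 CPM. The part of these transcripts in the MYC result was not tested. Of the 6 B-cell markers, 3 rose as well at 24 h and 0 fell in the same test, while 17.1% of all genes rose. With Ibr + AS at 48 h 2 of them rose and 0 fell (15.4 and 15.3% of all genes). At 72 h 1 rose and 3 fell (14.1 and 14.5% of all genes).

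At 48 h MYC was still clearly higher with the combination. Ibr + AS libraries had 346, 391 and 337 CPM (358 ± 28.9, SD, n = 3), and the DMSO libraries 193, 164 and 196 CPM. The groups did not overlap, and the log2 FC of 0.96 (SE 0.0961, 95% interval 0.77 to 1.15, adjusted p = 1.42e-14) passed the adjusted p together with 30.8% of genes but fell short of the DEG limit, which 7.69% of genes met. It passed that limit without replicate 1 (1.00) and without replicate 3 (1.04) but not without replicate 2 (0.81). In replicate 2 the log2 difference was 1.25, and its DMSO and Ibr + AS libraries of 48 h fell in different apparent sequencing runs. The log2 FC was smaller than at 24 h while the Ibr + AS level was nearly the same, since the DMSO level had increased. With Ibr the libraries had 221, 225 and 204 CPM (216 ± 11.3), all above DMSO, and the log2 FC of 0.25 (95% interval 0.06 to 0.44) was not called (adjusted p = 0.0883, 10.6% of genes passed). In a fit of the Ibr and DMSO libraries alone it was called (log2 FC 0.24, adjusted p = 0.0022). With AS the libraries had 167, 188 and 160 CPM (172 ± 14.5) and overlapped DMSO (log2 FC -0.08, 95% interval -0.27 to 0.11, adjusted p = 0.781, 3.66% of genes passed).

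At 72 h the order was different, with MYC in the Ibr + AS cells no longer apart from DMSO and lower in both single treatments. Ibr + AS libraries had 257, 275 and 280 CPM (271 ± 11.7), a range that encloses the 3 DMSO libraries at 274, 276 and 269 CPM. The log2 FC was -0.01 with a 95% interval of -0.20 to 0.18 (adjusted p = 1, 28.6% of genes passed). AS libraries had 187, 177 and 166 CPM (177 ± 10.4), all below DMSO, and MYC fell by 0.61 on the log2 scale (SE 0.0958, adjusted p = 6.20e-07, 13.2% of genes passed) in all 3 passages. Ibr libraries had 208 and 240 CPM, with 169 CPM in the library left out, and the log2 FC from the first pair was -0.29 (SE 0.108, adjusted p = 0.0462, 17.6% of genes passed). The Ibr call at 72 h was close to the threshold. It was lost without passage as a term (adjusted p = 0.0677), without replicate 3 (-0.28, adjusted p = 0.161) and with the 72 h libraries of replicate 3 left out (-0.30, adjusted p = 0.0557), and with all 36 libraries the log2 FC was -0.41 (adjusted p = 0.000975).

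**Figure D2:**
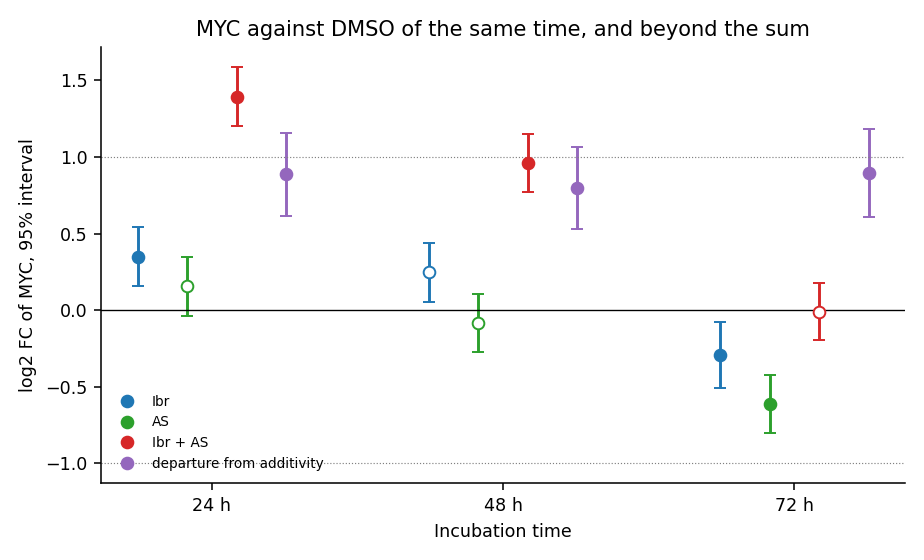
Log2 FC of MYC with its 95% interval (vertical axis) for each treatment against DMSO of the same incubation time, and for the departure from additivity, at 24, 48 and 72 h (horizontal axis), with filled points at an adjusted p of at most 0.05 and dotted lines at -1 and 1. The Ibr + AS values go from 1.39 at 24 h to -0.01 at 72 h, while the departure from additivity is 0.89, 0.80 and 0.90.

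The next question was how MYC under the combination compared with each inhibitor alone. Against AS, MYC was higher in Ibr + AS cells at all times, with a log2 FC of 1.24 at 24 h (adjusted p = 2.02e-19), of 1.04 at 48 h (adjusted p = 7.45e-16) and of 0.60 at 72 h (adjusted p = 5.35e-07), where 24.8, 27.8 and 15.5% of genes passed. Against Ibr, MYC was higher by 1.04 at 24 h (adjusted p = 3.29e-15) and by 0.71 at 48 h (adjusted p = 4.69e-09), where 19.4 and 20.1% of genes passed. At 72 h the difference from Ibr was 0.29 (95% interval 0.07 to 0.50, adjusted p = 0.102, 7.09% of genes passed). It rested on the choice of libraries at this time, since it was called with all 36 libraries (0.40, adjusted p = 0.0023), without replicate 1 (0.44, adjusted p = 0.00089) and without replicate 2 (0.52, adjusted p = 0.000105), and all of these keep the third Ibr library at 169 CPM. Ibr and AS were not separated by the test at any time, but at 48 h 4 of 12 alternatives called the difference, among them the fit without replicate 2 (0.37, adjusted p = 0.0483), and every Ibr library in the tests lay above the AS library of its passage. Their log2 differences were 0.19 (95% interval 0.0026 to 0.39, adjusted p = 0.740), 0.33 (0.14 to 0.52, adjusted p = 0.0517) and 0.32 (0.10 to 0.53, adjusted p = 0.121) at 24, 48 and 72 h, where 0.718, 1.67 and 1.95% of genes passed.

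MYC in the combination exceeded the sum of the single log2 effects at every time. This departure from additivity is what remains of the log2 FC under the combination after both single log2 FC are subtracted. Any difference in the amount of DMSO between the single-inhibitor groups and the others would also enter it, and this was not tested. It was 0.89 at 24 h (SE 0.136, adjusted p = 4.17e-06), 0.80 at 48 h (SE 0.135, adjusted p = 6.90e-06) and 0.90 at 72 h (SE 0.145, adjusted p = 3.43e-06). The share of genes that passed was 4.09, 13.6 and 8.02%, and at 24 h MYC had rank 15 of 18670 genes by p. Within the passages the departure was between 0.77 and 0.95 at 24 h, between 0.60 and 1.02 at 48 h and 0.86 and 0.84 in the 2 passages tested at 72 h. At 24 h it lay on top of a single effect above zero for Ibr. At 72 h both single effects were below zero and the level with Ibr + AS was that of DMSO.

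Time courses of MYC within the treated cells were flatter than with DMSO or ran the other way. In Ibr + AS cells the difference between 48 and 24 h was below 0.01 in size on the log2 scale (95% interval -0.19 to 0.19, adjusted p = 1). MYC then fell by 0.41 from 48 to 72 h (adjusted p = 0.0073, 2.07% of genes passed), a call lost without replicate 2 (-0.35, adjusted p = 0.0805). From 24 to 72 h it also fell by 0.41 (adjusted p = 0.0014, 9.66% of genes passed), a call lost without replicate 1 (-0.25, adjusted p = 0.187). In Ibr cells MYC rose by 0.35 from 24 to 72 h (adjusted p = 0.0384, 4.47% of genes passed). This call was lost without replicate 1 or 2 (0.27 and 0.09), in fits that hold the third Ibr library of 72 h, and without replicate 3 (0.38). It was also lost with all 36 libraries (0.24, adjusted p = 0.164), without passage as a term (0.36, adjusted p = 0.0528) and with the sequencing run as a term (0.25, adjusted p = 0.256). It was kept when only the 72 h libraries of replicate 3 were left out (adjusted p = 0.0286). In AS cells the same difference was 0.23 (95% interval 0.04 to 0.42, adjusted p = 0.189). The difference between the treatment effects at 72 and 24 h, which equals the change over time under a treatment less that under DMSO, was called for all 3 treatments. It was -0.64 for Ibr (SE 0.145, adjusted p = 0.0006, 14.4% of genes passed), -0.77 for AS (SE 0.136, adjusted p = 3.34e-05, 8.32% passed) and -1.40 for Ibr + AS (SE 0.136, adjusted p = 9.47e-15, 24.6% passed and 7.85% were DEGs).

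Ordered by the mean level of the libraries tested, MYC went from DMSO 24 h over AS 24 h, AS 48 h, Ibr 24 h, AS 72 h, DMSO 48 h and Ibr 48 h to Ibr 72 h. Neighbours in this part of the order overlapped in their libraries, except DMSO 48 h, at most 196 CPM, and Ibr 48 h, at least 204 CPM. With the left-out library at 169 CPM, the mean of Ibr 72 h was 205 instead of 224 CPM and lay below that of Ibr 48 h (216 CPM). A gap followed between the highest Ibr 72 h library, at 240 CPM, and the Ibr + AS 72 h libraries, at least 257 CPM. Ibr + AS 72 h and DMSO 72 h overlapped, and a second gap separated them from Ibr + AS 48 h and Ibr + AS 24 h, which overlapped with means of 358 and 360 CPM. In a linear model of log2 CPM over the 35 libraries, treatment took 65.6% of the variation of MYC, incubation time 7.86%, treatment by time 21.7% and passage 0.155%, which left 4.64%.

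The genes whose levels most resembled the course of MYC were sought among the 878 genes with a known symbol and a mean of at least 1 CPM. Over the 12 group means of log2 CPM, Pearson's r with MYC was highest for GFUS (0.955), an enzyme of GDP-fucose synthesis, WFS1 (0.952), a membrane protein of the endoplasmic reticulum, RPL8 (0.951), PFDN6 (0.945) and RPS10 (0.942). RPL8 and RPS10 are ribosomal proteins, and PFDN6 is a subunit of the chaperone prefoldin. Over the 35 libraries r with MYC was between 0.568 for PFDN6 and 0.922 for WFS1. The 12 group means include the Ibr 72 h library left out of the tests, and the 35 libraries do not. The lowest values were those of LMNB1 (-0.962), which encodes lamin B1, CAND1 (-0.954), an exchange factor of cullin ubiquitin ligases, the histone variant MACROH2A1 (-0.952), TAF2 (-0.949), a subunit of TFIID, and the chaperone HSPA4 (-0.946). Of all 10779 genes of this level, 227 (2.11%) reached an r of 0.9 or more and 277 (2.57%) one of -0.9 or less, so this likeness to MYC is shared by many genes. The r of GFUS was reached or exceeded by 27 of all these genes, itself included, and that of RPS10 by 51. At or below the r of LMNB1 lay 8 genes, and at or below that of HSPA4 lay 39. Most of these had no known symbol here and could not be named. The groups share passages and the same normalization, and the values are descriptions.

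**Figure D3:**
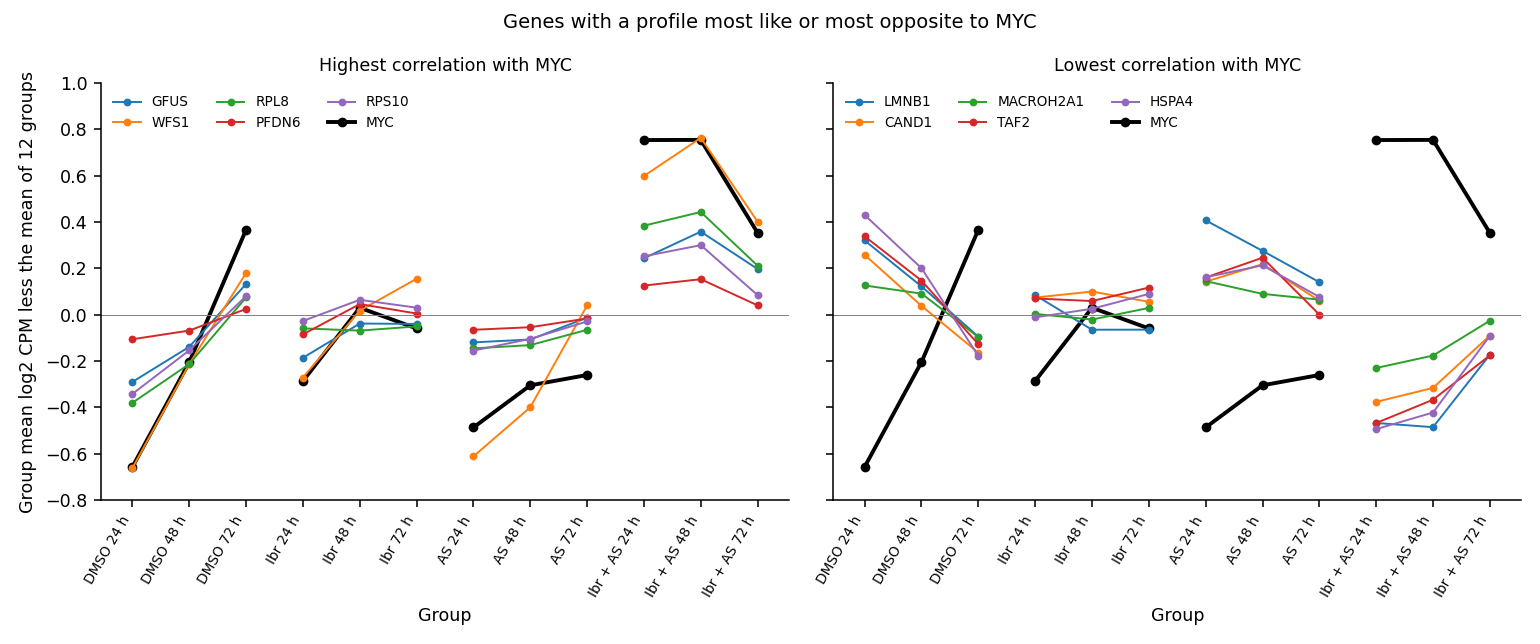
Group mean log2 CPM less the mean of the 12 groups (vertical axis), with lines joining the incubation times of each treatment (horizontal axis). MYC is in black. The other curves are the 5 genes with the highest (left) and lowest (right) correlation with it among the 878 genes with a known symbol. The mean of Ibr 72 h includes the library left out of the tests. WFS1 spans a range close to that of MYC, whereas the curve of PFDN6 is far flatter.

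These genes differed in how far they moved. They were chosen by their group means, which include the groups set side by side here, so the differences are given as descriptions with no test. WFS1 had a mean of 84.1 CPM with DMSO at 24 h and 203 CPM with Ibr + AS at 24 h, and its log2 FC against DMSO was 1.25 at 24 h, 0.98 at 48 h and 0.23 at 72 h, close to the values of MYC in the first pair of times. RPL8 went from 4251 to 7270 CPM at 24 h, with a log2 FC of 0.76. PFDN6 had a log2 FC of only 0.23 at 24 h, so its likeness to MYC is one of shape. LMNB1 went from 769 to 446 CPM and HSPA4 from 409.6 to 216 CPM at 24 h, with log2 FC of -0.81 and -0.94.

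Genes that MYC is known to raise, for translation, chaperone, splicing and cell-cycle proteins, mostly did not follow MYC upwards under Ibr + AS. Of 26 such targets, 4 rose, 17 fell and 5 were not called at 24 h against DMSO, where 17.1% of all genes rose and 16.9% fell. The median log2 FC of the list was -0.50, and that of all genes 0.03. The shares of all genes, here and for the other lists, include genes with few reads. Shares among genes of a level like that of the lists were not computed. ETF1, a translation termination factor, went from 51.9 ± 1.85 to 24.3 ± 2.01 CPM (SD, n = 3; log2 FC -1.12, adjusted p = 8.80e-17), and PWP1, a factor of ribosome biogenesis, from 104 ± 1.64 to 52.8 ± 2.45 CPM (log2 FC -1.01, adjusted p = 8.32e-17). Both were DEGs, and both also fell with Ibr (-0.47 and -0.59) and with AS (-0.37 and -0.40) alone at this time. The cell-cycle kinase CDK2 fell by 0.87 at 24 h, by 0.93 at 48 h and by 0.66 at 72 h (adjusted p = 2.81e-12, 2.53e-13 and 4.58e-08). The 4 targets that rose, named after their values were seen, were BYSL (0.84), a factor of small-subunit assembly, the ribosomal proteins RPS6 (0.66) and RPS10 (0.59), and EIF3D (0.31), a subunit of an initiation factor, whose call was lost without TMM factors (0.18, adjusted p = 0.0602).

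At 48 h 3 of the 26 targets rose, 15 fell and 8 were not called (median -0.27; 15.4% of all genes rose and 15.3% fell), and the 3 that rose were BYSL, RPS6 and RPS10. At 72 h, when MYC was level with DMSO, 6 targets rose, 4 fell and 16 were not called (median 0.07; 14.1 and 14.5% of all genes), with 2 that fell without replicate 2. BYSL was then a DEG with a log2 FC of 1.39, as were 7.53% of all genes. In DMSO cells, where MYC rose from 24 to 72 h, 2 targets rose, 17 fell and 7 were not called (median -0.26; 18.5 and 19.5% of all genes), and ETF1 and PWP1 were among those that fell (-0.51 and -0.56). The departure from additivity was called for 1 target upwards and 2 downwards at 24 h (2.07 and 2.02% of all genes), for 0 upwards and 9 downwards at 48 h (5.99 and 7.6%) and for 0 upwards and 3 downwards at 72 h (3.96 and 4.06%). Of the genes that MYC is known to repress, CDKN2B, an inhibitor of cyclin-dependent kinases, rose by 0.40 with Ibr + AS at 24 h (adjusted p = 0.0357, lost without TMM factors at 0.27 and adjusted p = 0.0874), had a log2 FC of -0.28 at 48 h (adjusted p = 0.179, called without TMM factors at -0.40 and adjusted p = 0.0090) and fell by 1.02 at 72 h (adjusted p = 4.23e-06). In DMSO cells CDKN2B rose by 0.93 from 24 to 72 h together with MYC. NDRG1 averaged at most 0.168 CPM in any group and was not called.

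**Figure D4:**
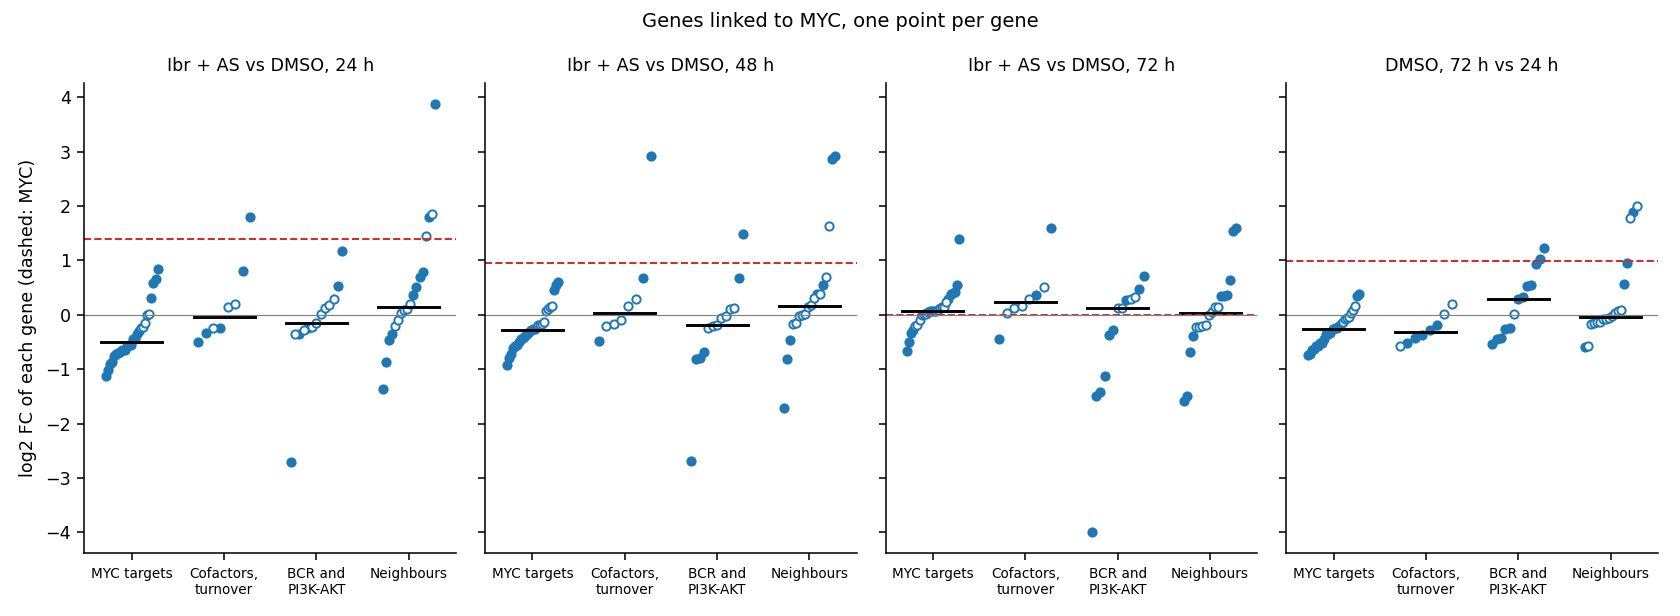
Log2 FC of each gene of 4 lists (vertical axis; 1 point per gene, filled at an adjusted p of at most 0.05, black bars at the list medians) in Ibr + AS against DMSO at 24, 48 and 72 h and in DMSO at 72 h against 24 h, with the value of MYC as a dashed line. In the first panel the median of the MYC targets is -0.50 while MYC is at 1.39.

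Among 8 genes linked to MYC, most of them for partners of the protein or for its turnover, 2 rose and 3 fell with Ibr + AS at 24 h. Of all genes 17.1% rose and 16.9% fell, and without replicate 1 it was 4 of the list that rose. FBXO32, a ubiquitin ligase subunit known to target MYC protein, went from 0.775 ± 0.192 to 2.75 ± 0.846 CPM at 24 h (log2 FC 1.80, adjusted p = 1.97e-06) and had a log2 FC of 2.92 at 48 h (adjusted p = 2.66e-09). It was a DEG with Ibr alone at 24 h too (1.55, adjusted p = 0.000549), as were 1.12% of all genes. PIM1, a kinase that works together with MYC in lymphomas, went from 9.58 ± 0.876 to 16.9 ± 1.05 CPM at 24 h (log2 FC 0.80, adjusted p = 4.95e-07). The 3 that fell were MTBP (-0.51), HNRNPK (-0.33) and SKP1 (-0.24, lost with RLE factors at adjusted p = 0.0796), named after their values were seen.

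A list of 13 genes was linked to BCR and PI3K-AKT signalling, the pathways that the inhibitors act on and that lie upstream of MYC. It also holds outputs of these pathways, among them EGR1, MYB and BCL2, so its counts are not those of upstream signalling alone. Of the 13, 2 rose and 3 fell with Ibr + AS at 24 h (17.1 and 16.9% of all genes), 2 rose and 4 fell at 48 h (15.4 and 15.3%), and 3 rose and 6 fell at 72 h (14.1 and 14.5%). The number that fell at 24 h was 1 without replicate 1 and 6 without replicate 3. EGR1, an immediate early gene of BCR signalling, went from 118 ± 15.3 to 21.4 ± 16 CPM at 24 h (log2 FC -2.70, adjusted p = 0.000504) and also fell with Ibr alone (-2.47, adjusted p = 0.0054), whereas with AS alone its log2 FC was 0.01 (adjusted p = 1). EGR1 and MYC thus went opposite ways under the combination at 24 h. MYB, a transcription factor gene, rose in DMSO cells from 24 to 72 h (0.93), as MYC did, and fell with Ibr + AS by 0.35 at 24 h, by 0.79 at 48 h and by 1.48 at 72 h (adjusted p = 0.0116, 9.19e-09 and 1.91e-21). DEPTOR, an inhibitor of mTOR, went from 1.68 ± 0.387 to 3.97 ± 1.53 CPM at 24 h (log2 FC 1.17, adjusted p = 9.14e-05), and RAC2, a small GTPase of blood cells, rose by 0.54 (adjusted p = 5.30e-07). DEPTOR shared with MYC a departure from additivity above zero at 48 h (2.21, adjusted p = 3.41e-05) and at 72 h (3.30, adjusted p = 5.34e-09).

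MYC lies on chromosome 13 of the dog, and 18 of its neighbours within 20 protein-coding genes on either side could be followed. The order of genes was taken from a RefSeq annotation of the assembly UU_Cfam_GSD_1.0, which is not the assembly of the counts, so no coordinates are given. With Ibr + AS at 24 h 6 neighbours rose, 4 fell and 8 were not called, against 17.1 and 16.9% of all genes that rose and fell, and 2 neighbours fell without replicate 1. FBXO32, 18 genes away, and NDRG1, 16 genes away, were already counted in lists above, so the lists are not separate. FBXO32 was among the neighbours that rose and was a DEG. MTSS1, an actin-binding scaffold gene 8 genes away from MYC, went from 3.48 ± 0.551 to 51.3 ± 11.1 CPM (log2 FC 3.87, adjusted p = 5.58e-20), a larger difference than that of MYC. SQLE, an enzyme of cholesterol synthesis 6 genes away, went from 701 ± 54.8 to 278 ± 19.3 CPM (log2 FC -1.36, adjusted p = 4.26e-22). The nearest that could be followed were TRIB1 and CYRIB, each 3 genes away on opposite sides and named after their values were seen. TRIB1, a pseudokinase gene, rose by 0.69 at 24 h (0.57 without TMM factors, adjusted p = 0.0631), fell by 1.59 at 72 h against DMSO and rose by 1.90 in DMSO cells from 24 to 72 h, while CYRIB had a log2 FC of -0.10 at 24 h that was not called.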

How the data were processed

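RNA of 36 CLBL-1 libraries in 12 groups of 3 passages was compared. The authors mapped single-end reads to CanFam3.1 with STAR 2.7.5a and deposited raw read counts per Ensembl gene, pooled over lanes and not normalized. Which strand column was kept is not given in the sources used here, so reads of overlapping antisense genes cannot be told apart from those of MYC.

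The analysis used edgeR 4.0.16 in R 4.3.3 (TMM factors, robust quasi-likelihood fits, Benjamini-Hochberg adjustment over all genes tested). A gene entered a fit when its libraries together held 2 reads or more, which left 18670 genes for 35 libraries (terms passage and group) and 16468 for the 9 DMSO libraries (terms passage and time). A call needs an adjusted p of at most 0.05, and a DEG also an absolute log2 FC above 1. A prior count of 1 was used for log2 CPM. All fits were first tested on simulated data.

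The passage number pairs the libraries by the labels. Deviations from the group means over 10780 genes had a median r of 0.107 between libraries of 1 passage (198 pairs) and of -0.04 between those of different passages (396 pairs). The title of DMSO 24 h replicate 3 names the passage of replicate 2, but its passage field that of replicate 3, which was used. Of 36 pairs of libraries within a group, 0 were identical. The table was searched for MYC by identifier, and symbols of other genes came from the given parts of supplementary tables, which pair 1068 identifiers.

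MYC and the lists were chosen with earlier results of these data known. Among genes with a known symbol, the 5 with the highest and the 5 with the lowest r with MYC were named. Of each list, the DEGs of Ibr + AS against DMSO at 24 or 48 h and the 2 genes with the smallest adjusted p there were named. Alternatives were DESeq2 1.42.0, RLE factors, filterByExpr, no filter, all 36 libraries, no passage term, glmTreat against an absolute log2 FC of 1, fits of the groups compared only, 1 fit of 35 libraries for DMSO, and each replicate or the 72 h libraries of replicate 3 left out; the fits without replicate 1 or 2 included Ibr 72 h replicate 3. The sequencing run as a term and library totals without TMM factors were chosen after the counts had been seen.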

Additional observations from a re-analysis of the deposited data

Results flagged for a closer look

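The effect of each treatment on MYC differed between 72 h and 24 h, by a test of the difference itself (quasi-likelihood F test of edgeR, adjusted over 18670 genes). The log2 FC against DMSO was lower at 72 h than at 24 h, with a difference of -0.64 for Ibr (95% interval -0.93 to -0.36), of -0.77 for AS (-1.04 to -0.50) and of -1.40 for Ibr + AS (-1.67 to -1.13). The direction was the same in each of the 3 passages for AS and Ibr + AS and in both passages tested for Ibr. All 3 values contain the same rise of MYC in DMSO cells, so they are not independent of each other. Groups of 3 libraries are too small to be searched for single deviating libraries.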

How the results depend on the processing

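The rise of MYC with Ibr + AS at 24 h was called and a DEG under all 13 alternatives (log2 FC 1.21 to 1.55), and so was its change of effect from 24 to 72 h (-1.60 to -1.20).

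Against a null of an absolute log2 FC of 1 (glmTreat), values are those of the text but the calls are lost: Ibr against DMSO at 24 and 72 h (0.35, -0.29), Ibr + AS against DMSO at 48 h (0.96), AS against DMSO at 72 h (-0.61), Ibr + AS against Ibr at 24 and 48 h (1.04, 0.71) and against AS (1.24, 1.04, 0.60), the departures from additivity (0.89, 0.80, 0.90), the effects at 72 less 24 h of Ibr and AS (-0.64, -0.77), Ibr from 24 to 72 h (0.35), Ibr + AS from 24 and from 48 to 72 h (-0.41 each) and DMSO over time (0.45, 0.99, 0.54).

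Ibr against DMSO at 72 h was not called with DESeq2 (-0.29; adjusted p = 0.0509), filterByExpr (-0.29; adjusted p = 0.0516) or without the passage block (-0.29; adjusted p = 0.0677), and at 48 h it was called in the fit of the groups compared (0.24). Leaving out the block changed no other call among the contrasts in the report except Ibr from 24 to 72 h. Ibr against AS at 48 h was called with DESeq2 and RLE factors (0.34 each), with the run as a term (0.41) and without replicate 2 (0.37). Ibr + AS against Ibr at 72 h was called with all 36 libraries (0.40). Without 1 replicate at a time the values ranged from 0.25 to 0.45 (Ibr, 24 h), -0.53 to -0.28 (Ibr, 72 h), -0.051 to 0.013 (Ibr + AS, 72 h), 0.30 to 0.37 (Ibr against AS, 48 h) and 0.23 to 0.52 (Ibr + AS against Ibr, 72 h).

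Differences near zero changed sign. Ibr at 72 against 48 h was 0.02, and -0.078 with all 36 libraries, -0.083 with the run as a term and -0.18 to 0.042 without 1 replicate. AS at 72 against 48 h was -0.020 to 0.11 without 1 replicate, and Ibr + AS at 48 against 24 h was 0.0030 with DESeq2 and with RLE factors, 0.0054 with filterByExpr, 0.0087 with library totals and -0.13 to 0.15 without 1 replicate. The cause was not tested. DMSO at 72 against 24 h crossed the DEG limit in 6 of 13 alternatives (0.92 to 1.09). Of the MYC targets, 5 rose at 48 h with DESeq2 and in the fit of the groups compared, against 3. Of the 5 named genes most like and the 5 most unlike MYC, 3 and 1 were kept with Spearman's rho. Without TMM factors treatment took 62.3% and time 10.2% of the variation.

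The limits are those of 3 passages of 1 line: other lymphomas were not measured. Depth was not limiting for MYC, whereas NDRG1 and FBXO32 had few reads. Levels are relative to library totals, and TMM factors were lower in Ibr + AS libraries at 24 and 48 h (0.91 to 0.96) than in DMSO libraries (1.01 to 1.04).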
